A study of Mus musculus with 12 samples.

Results

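Mitochondrial fatty acid beta-oxidation was followed in mouse inguinal white adipose tissue (iWAT), a fat pad under the skin, through 31 genes that encode its enzymes, carriers and electron acceptors. The list was set by gene name and not by a measured value, but it was chosen with earlier results of these data known. Of its genes, 30 were measured among the 22180 genes tested. Each gene was read from the transcript cluster, the array's set of probes for a transcript, that carried its symbol alone and had the highest mean signal over the 12 arrays. Acsl3, whose cluster also carried a second symbol, was not analysed here. The 12 arrays formed 4 groups of 3. AKO mice lacked BAF60a, a subunit of SWI/SNF chromatin remodelling complexes, in adipocytes through Adiponectin-Cre acting on floxed Baf60a (Smarcd1) alleles, and flox mice were their controls with the floxed alleles. AKO Cold and flox Cold mice spent 7 days at 10 °C after stepwise adaptation, whereas AKO RT and flox RT mice stayed at 22 °C, all on standard chow. The labels state an age of 9 months, and the study's methods give a younger range for cold acclimation. RNA of 1 or 2 mice was pooled per array, so that p-values measure the spread between such pools. The whole fat pad was used, so RNA of cells other than adipocytes was measured as well, and fewer cells of a type cannot be told apart from less RNA per cell.

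Long-chain fatty acids are first activated to acyl-CoA and carried across the inner mitochondrial membrane as carnitine esters. In the matrix they are shortened in turns of dehydrogenation, hydration, a further oxidation and thiolysis, and the electrons of the first step pass through electron transfer flavoprotein and its dehydrogenase to ubiquinone. In brown and beige adipocytes this pathway supplies the reducing power that uncoupled respiration turns into heat, and cold is known to raise the expression of many of its genes in fat.

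Values are log2 signals after robust multi-array averaging (RMA), with array medians between 3.58 and 3.71 and correlations of 0.981 to 0.987 within groups and 0.978 to 0.985 between groups. Signal of Smarcd1, the deleted gene, was 6.27, 6.26 and 6.37 in AKO Cold arrays against 6.27, 6.51 and 6.89 in flox Cold arrays, and 5.89, 6.26 and 6.30 in AKO RT arrays against 6.42, 6.43 and 6.91 in flox RT arrays. The arrays overlapped in cold but not at RT, and neither difference passed the test (-0.25, SE 0.18, adjusted p = 0.915, and -0.44, SE 0.18, adjusted p = 0.782). Where the probes lie in relation to the floxed exons is not given in the sources used here. All 15 measured markers of mature adipocytes exceeded the overall median signal of 3.635 in every array. The sum of 25 skeletal muscle markers on the linear scale ranged from 525.4 to 12910 in AKO Cold arrays, 556.2 to 3521 in flox Cold arrays, 663.7 to 9862 in AKO RT arrays and 483.2 to 2953 in flox RT arrays. AKO Cold 3, AKO RT 2 and AKO Cold 2 held the most muscle signal and AKO Cold 1 had the lowest mean of these markers among the 12 arrays.

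Beta-oxidation genes were highest in AKO Cold arrays and lowest in flox RT arrays. Relative to each gene's mean over the 12 arrays, the 30 genes averaged 0.35, 0.31 and 0.29 (log2) in AKO Cold, 0.07, 0.17 and -0.04 in flox Cold, -0.11, -0.21 and -0.06 in AKO RT, and -0.24, -0.34 and -0.205 in flox RT. The 3 AKO Cold arrays lay above the 9 others, and the flox Cold arrays lay above both RT groups. For 9 genes, namely Slc25a20, Cpt2, Crat, Acadvl, Acadm, Hadha, Hadhb, Decr1 and Etfdh, every AKO Cold array exceeded every other array, which held for 1.53% of all genes tested. The mean of 11 brown and beige adipocyte markers was also highest in these arrays, at 2.08, 1.84 and 1.83 in AKO Cold against -0.36, 0.20 and -0.45 in flox Cold, and of -0.72, -0.85 and -0.65 in AKO RT against -1.08, -0.98 and -0.86 in flox RT. Ucp1, the uncoupling protein of brown and beige fat, measured 10.92, 10.41 and 10.59 in AKO Cold arrays against 4.94, 5.72 and 3.71 in flox Cold arrays. Of the 11 markers, 9 had every AKO Cold array above every other array. The exceptions were Ppargc1a and Prdm16, a regulator of brown fat identity, which measured 6.11, 5.60 and 5.40 in AKO Cold arrays against 6.02, 5.98 and 5.82 in flox Cold arrays. The part of these markers in the differences of the pathway was not tested.

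**Figure D1:**
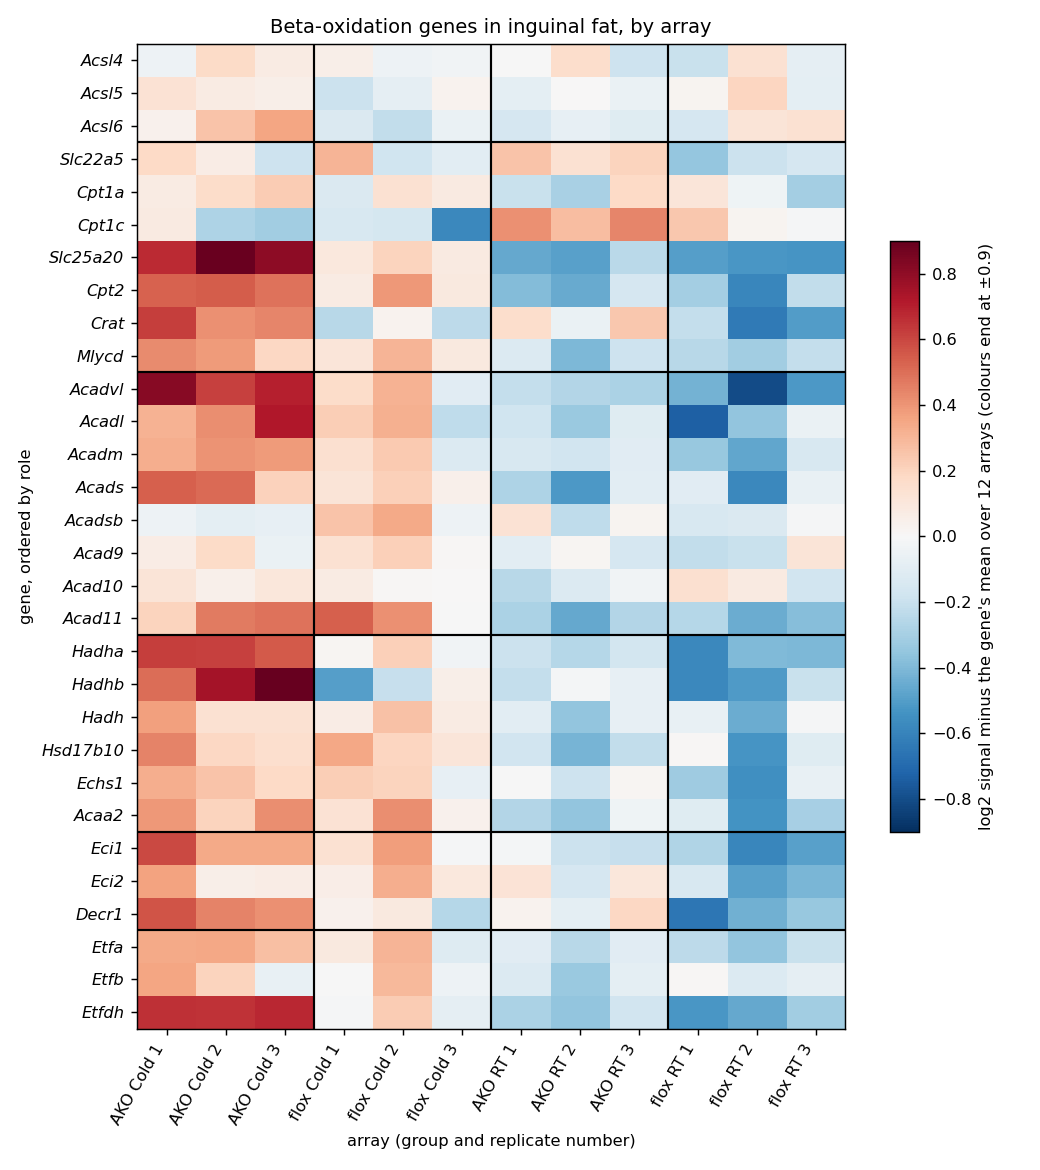
Log2 signal of each measured beta-oxidation gene (rows, ordered by role) in each of the 12 arrays (columns, grouped as AKO Cold, flox Cold, AKO RT and flox RT), as the distance from the gene's mean over all arrays. The AKO Cold columns are the reddest, with Slc25a20, Acadvl, Hadha, Hadhb and Etfdh among the strongest, while Cpt1c runs the other way.

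**Figure D2:**
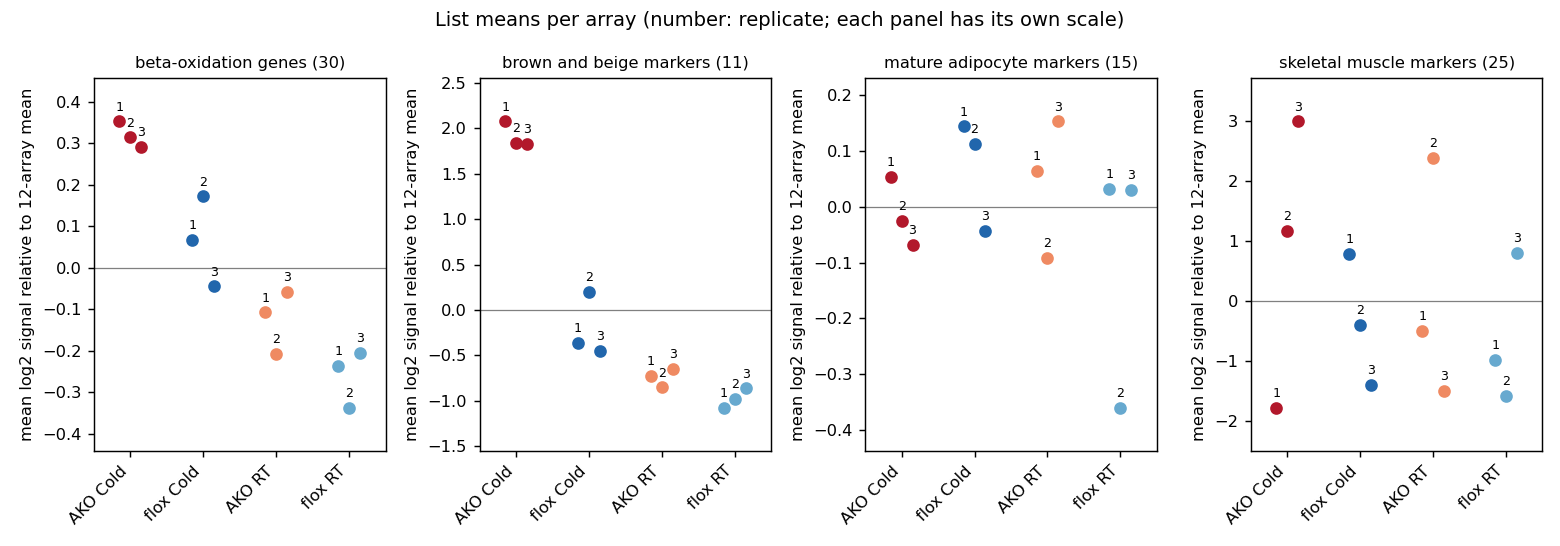
Mean log2 signal relative to the 12-array mean for the beta-oxidation genes and 3 marker lists, with 1 point per array and its replicate number above it. Beta-oxidation genes and brown and beige markers are highest in the 3 AKO Cold arrays, mature adipocyte markers stay between -0.36 and 0.15, and skeletal muscle markers range from -1.78 to 3.0 within AKO Cold alone.

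The promoters of the 3 genes that passed the test between genotypes in cold are shown. These genes were picked by that test, so their being higher in the same arrays is not a further result. Each is the 250 bases before the RefSeq transcription start on GRCm38.p6, written along the gene's own strand. Capitals mark GC boxes (GGGCGG, or its reverse complement) and 1 NRF1 element, the binding sequence of a factor that controls many nuclear genes of mitochondria.
Slc25a20 promoter, chr9:108661886-108662135, plus strand: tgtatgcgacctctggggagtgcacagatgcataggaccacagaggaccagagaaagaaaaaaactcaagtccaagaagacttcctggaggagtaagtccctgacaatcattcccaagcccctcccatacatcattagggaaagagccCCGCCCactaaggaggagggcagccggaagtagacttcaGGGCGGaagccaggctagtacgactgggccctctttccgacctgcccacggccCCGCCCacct
Hadhb promoter, chr5:30155003-30155252, plus strand: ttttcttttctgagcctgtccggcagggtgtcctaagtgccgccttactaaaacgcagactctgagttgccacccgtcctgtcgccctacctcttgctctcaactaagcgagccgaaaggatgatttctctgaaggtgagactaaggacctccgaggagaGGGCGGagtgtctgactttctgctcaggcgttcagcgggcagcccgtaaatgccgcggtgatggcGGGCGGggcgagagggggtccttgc
Etfdh promoter, chr3:79628768-79629017, minus strand: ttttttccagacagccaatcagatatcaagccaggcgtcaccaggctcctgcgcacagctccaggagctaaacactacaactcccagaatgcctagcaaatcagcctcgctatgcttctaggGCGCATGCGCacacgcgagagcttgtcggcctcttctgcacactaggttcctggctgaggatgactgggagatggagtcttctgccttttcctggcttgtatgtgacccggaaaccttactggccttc
Of the 31 genes, 27 had a promoter in the RefSeq table. A GC box occurred on either strand in 19 of these 27, including Slc25a20 and Hadhb, and in 42.7% of 17492 promoters of the same length. The NRF1 element, GCGC on both sides of AT, occurred in 1 of 27, that of Etfdh, and in 1.06% of all. The site AAGGTCA, which estrogen-related receptors bind, occurred in Acadm and Acsl6 alone and in 3.58% of all. The DR1 element of peroxisome proliferator-activated receptors, 2 copies of AGGTCA in the same direction with 1 base between them, which can overlap the site before, occurred in none of the 27 and in 0.0457% of all. Hadha starts 273 bases from Hadhb on chromosome 5 and is read from the opposite strand, so the Hadhb window lies between both starts. The windows of Hadha and Hadhb overlap. The GC box of Hadha is the same sequence as the first GC box of Hadhb, so it counts for both genes among the 19. These are matches of letters in short windows and not measured binding sites.

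The comparison of AKO with flox in cold asked how loss of BAF60a in adipocytes altered the pathway during chronic cold. Of the 30 genes, 28 were higher in AKO Cold, with a median log2 difference of 0.165 against 0.002378 over all genes tested, where 50.6% were above 0. At an adjusted p below 0.05 (limma, Benjamini-Hochberg over 22180 genes), 3 genes were higher and 0 lower, beside 0.149% and 0.0631% of all genes. At an unadjusted p under 0.05, 10 were higher and 0 lower (3.23% and 3.05% of all genes). The 3 called genes were Slc25a20, Hadhb and Etfdh, which belong to transport, the last steps of the cycle and electron transfer. Hadhb alone stands for the last steps here. The signals of Hadhb outside AKO Cold lay below the overall median, so its level there is not shown to exceed background. The 3 AKO Cold arrays lay wholly above the 3 flox Cold arrays for 11 of 30 genes (5.7% of all genes) and wholly below for 0 (5.55%). The count of 3 became 0 without AKO Cold 2, AKO Cold 3 or flox Cold 1, 1 without flox Cold 2, flox Cold 3, AKO RT 1, AKO RT 2, AKO RT 3, flox RT 1 or flox RT 2, and 2 without AKO Cold 1 or flox RT 3. It was 0 without the 3 arrays richest in muscle markers, which leaves AKO Cold with 1 array, while the differences of the 3 genes were then 0.55, 0.72 and 0.61.

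At RT no gene of the pathway passed the test between AKO and flox mice. Of the 30 genes, 22 were higher in AKO RT, with a median of 0.10 against -0.007469 over all genes, where 48.3% were above 0. The number called was 0 (limma), beside 0.0992% of all genes that were higher and 0.0451% that were lower. At an unadjusted p under 0.05, 7 genes were higher and 0 lower (3.06% and 3.09% of all genes). The methods' t-test gave 6 at that threshold (5.48% of all genes). After Benjamini-Hochberg it gave 0 in the pathway and 1 over all genes. The arrays of AKO RT lay wholly above those of flox RT for 8 of 30 genes (5.61% of all genes) and wholly below for 0 (5.73%). Whether the genotype difference itself changed with temperature was tested by the interaction, in which 0 genes of the pathway and 0.018% of all genes passed (limma). It was above 0 for 23 of 30 genes (51.6% of all genes), with 4 higher and 0 lower at an unadjusted p under 0.05 (2.5% and 2.29% of all genes). Averaged over both temperatures, Crat, Decr1, Hadha, Hadhb and Slc25a20 were higher in AKO mice, 5 genes of 30 beside 0.356% of all genes, and 25 of 30 differences were above 0 (48.6% of all genes). At an unadjusted p under 0.05 that comparison had 10 genes higher and 0 lower (3.86% and 3.37% of all genes). The count of 5 was 0 without AKO RT 1 or AKO RT 3, 1 without AKO Cold 2, AKO Cold 3 or flox RT 1, 2 without flox Cold 1, 3 without AKO Cold 1, flox Cold 3, AKO RT 2, flox RT 2 or flox RT 3, and 4 without flox Cold 2. It was also 0 without the 3 arrays richest in muscle markers and 2 with the muscle marker mean as a covariate.

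**Figure D3:**
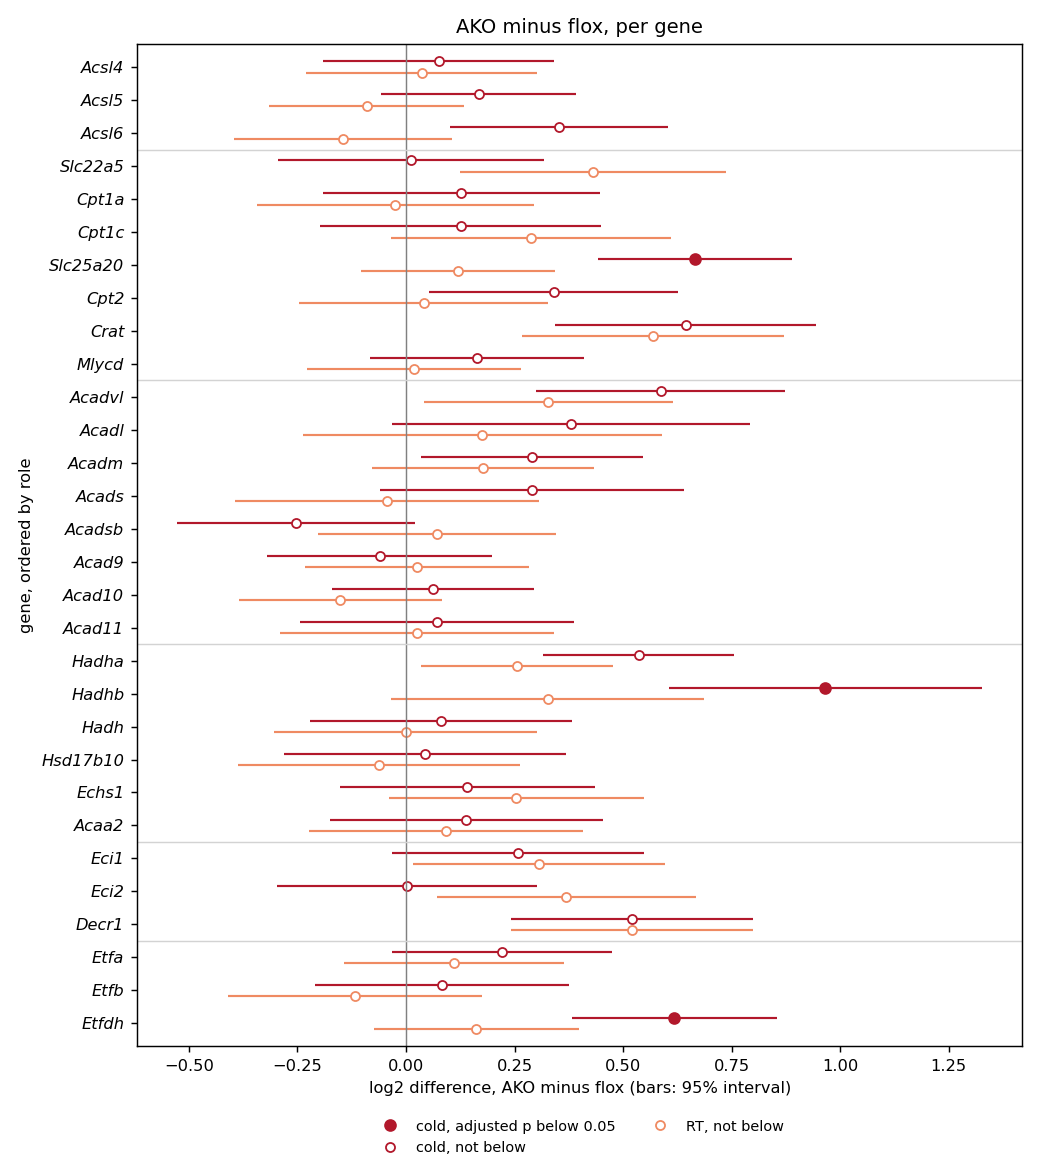
Log2 difference between AKO and flox mice for each gene, in cold (dark red) and at RT (orange), with 95% intervals from the limma fit and filled points where the adjusted p was below 0.05. Filled points stand for Slc25a20 (0.67), Hadhb (0.97) and Etfdh (0.62) in cold, while Crat and Decr1 have nearly the same difference at both temperatures.

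Cold was compared with RT within each genotype to ask how the pathway responded to cold with and without BAF60a. In AKO mice 27 of 30 genes were higher in cold (50.6% of all genes), with a median of 0.45, and 5 passed the test upward and 0 downward, beside 0.379% and 0.0857% of all genes. At an unadjusted p under 0.05, 21 were higher and 1 lower (5.43% and 4.43% of all genes). The 5 genes were Slc25a20, Etfdh, Hadha, Acadvl and Cpt2. In flox mice 27 of 30 were also higher (48.3% of all genes), with a median of 0.39, but 0 passed (limma) beside 0.00902% of all genes. At an unadjusted p under 0.05, 19 genes were higher and 1 lower in flox (4.98% and 4.45% of all genes). The methods' t-test gave 12 (6.86% of all genes) and, after adjustment, 0 in the pathway and 0 over all genes. With trend and robust settings limma called 3, beside 50 of all 22180 genes. Without dim genes it called 1, beside 16 of 12955 genes (0.124%). The cold arrays lay wholly above the RT arrays for 23 of 30 genes in AKO (8.9% of all genes) and for 16 in flox (7.02%), and wholly below for 1 in each, Cpt1c (8.3% and 5.86%). No difference between the 2 cold responses was shown, as 0 genes of the pathway passed the interaction, which tests it. The count in AKO was 4 to 7 when 1 array was left out and 0 without the 3 arrays richest in muscle markers.

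Averaged over both genotypes, 16 of 30 genes were higher in cold and 1, Cpt1c, was lower, beside 1.38% and 0.455% of all genes. Differences were above 0 for 29 of 30 (49.2% of all genes), and 21 were higher and 1 lower at an unadjusted p under 0.05 (6.97% and 6.21%). The 16 covered every step from the carnitine carrier to electron transfer. None of the 3 measured genes of acyl-CoA activation was among them. Hadhb was among the 16 (0.53, SE 0.12, adjusted p = 0.0437), although its signals outside AKO Cold lay below the overall median. Its call was lost without 9 of the 12 arrays in turn (adjusted p up to 0.115). The 6 cold arrays lay above the 6 RT arrays for 12 genes (1.46% of all genes). The total of 17 was 9 without flox Cold 2, AKO RT 1, AKO RT 2 or flox RT 2, 10 without AKO Cold 2 or AKO Cold 3, and 11 without AKO Cold 1 or flox Cold 1. It was 13 with the muscle marker mean as a covariate and 3 without the 3 arrays richest in muscle markers, and these 3 were Slc25a20, Acadvl and Hadha. All comparisons were drawn from the same 12 arrays and share groups, so their counts are not independent.

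**Figure D4:**
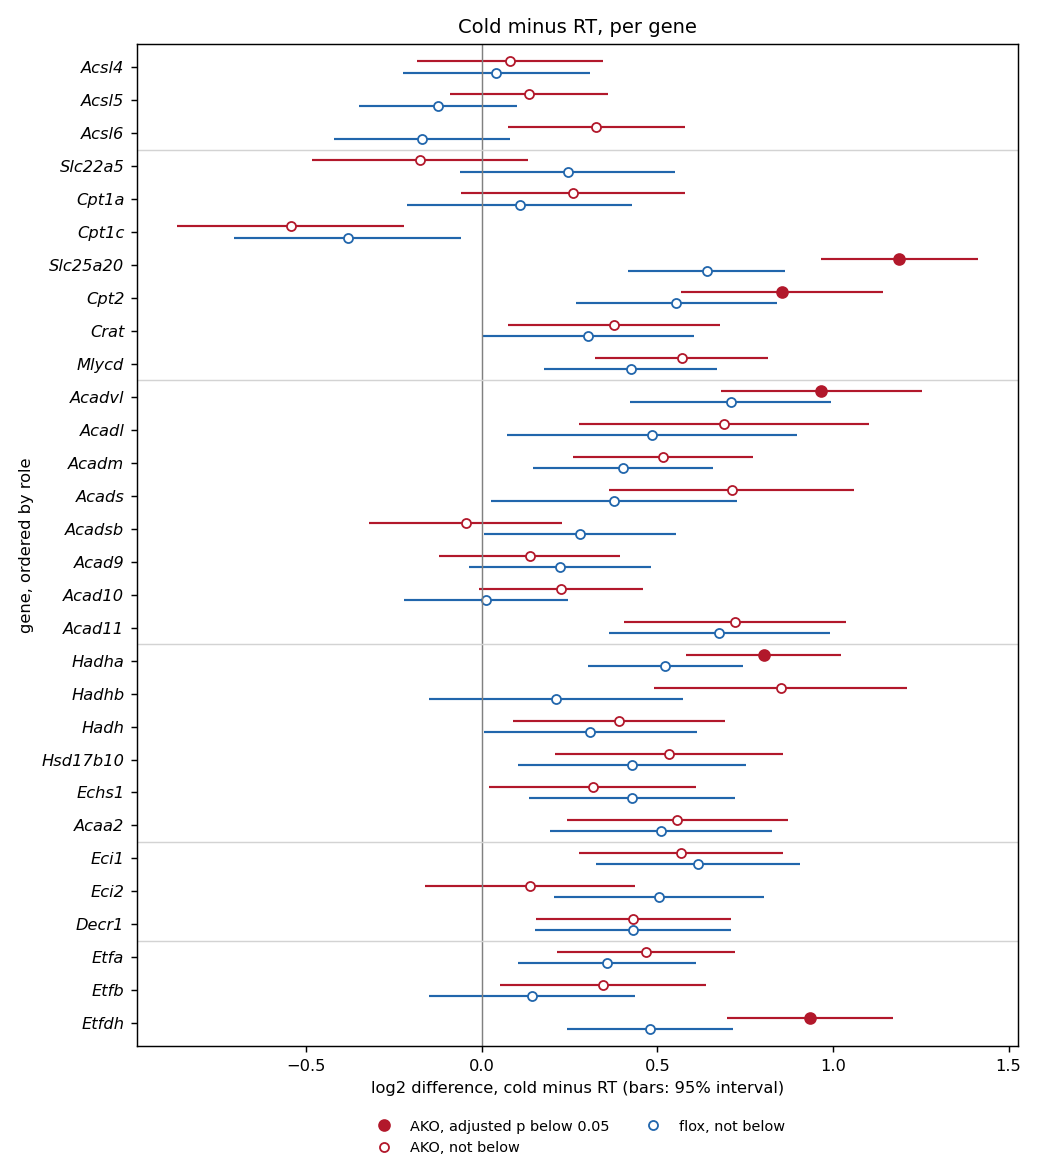
Log2 difference between cold and RT for each gene, in AKO mice (red) and flox mice (blue), with 95% intervals from the limma fit and filled points where the adjusted p was below 0.05. Filled points are Slc25a20, Cpt2, Acadvl, Hadha and Etfdh in AKO mice, and Cpt1c is the gene farthest to the left in both genotypes.

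The 3 measured genes of the list for the activation of fatty acids to acyl-CoA were not called. Acsl3 and Acsl1 were not analysed, so this step is only partly covered. Slc27a2, a very long-chain acyl-CoA synthetase outside the list, was higher in AKO Cold than in flox Cold by 2.97 (limma, adjusted p = 3.11e-05). Its arrays outside AKO Cold all lay below the overall median signal, so the size of that difference is not settled. Slc27a2 is also on the list of brown and beige markers. Acsl4, a synthetase that prefers arachidonate, and Acsl5, a long-chain synthetase, differed by -0.12 to 0.17 in the pairwise comparisons. Of the 3 measured synthetases of the list, 0 passed in any of the 7 comparisons. Acsl6, known mainly from brain, measured 3.08, 3.30 and 3.40 in AKO Cold arrays against 2.92, 2.83 and 2.98 in flox Cold arrays. AKO Cold arrays lay wholly above flox Cold arrays (0.35, SE 0.11, adjusted p = 0.52), but all 12 values of Acsl6 were below the overall median signal of 3.635, so that a level above background is not shown. At RT its arrays overlapped, with 2.90, 2.97 and 2.94 in AKO RT arrays against 2.90, 3.16 and 3.18 in flox RT arrays.

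Slc25a20 had the largest cold difference of the pathway in AKO mice. It encodes the inner membrane carrier that exchanges acylcarnitine for carnitine, and measured 8.54, 8.76 and 8.68 in AKO Cold arrays against 7.96, 8.07 and 7.95 in flox Cold arrays. At RT it measured 7.41, 7.38 and 7.63 in AKO RT arrays against 7.38, 7.34 and 7.34 in flox RT arrays. All AKO Cold arrays lay above all flox Cold arrays, and these above every RT array. The AKO RT arrays lay above the flox RT arrays by a narrow margin (AKO RT 2 at 7.382, flox RT 1 at 7.375). The signal in AKO Cold was 1.59-fold that in flox Cold, a log2 difference of 0.67 (SE 0.10, adjusted p = 0.0201), and 2.28-fold that in AKO RT, a difference of 1.19 (SE 0.10, adjusted p = 0.00025). Within flox mice the cold difference was 0.64 (SE 0.10, adjusted p = 0.0876), and between genotypes at RT it was 0.12 (SE 0.10, adjusted p = 0.92). The interaction of Slc25a20 was 0.55 (95% interval 0.23 to 0.86, adjusted p = 0.978). The genotype call in cold was lost without AKO Cold 2, AKO Cold 3 or any flox Cold array, with adjusted p up to 0.121, whereas the cold call in AKO held without each of the 12 arrays in turn. That genotype call was also lost with only the 6 arrays compared, a block for replicate number or the methods' t-test after adjustment.

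Cpt2, the inner membrane transferase that turns acylcarnitine back into acyl-CoA, measured 9.38, 9.39 and 9.33 in AKO Cold arrays against 8.92, 9.23 and 8.93 in flox Cold arrays. Its RT values were 8.45, 8.39 and 8.69 in AKO RT arrays against 8.54, 8.26 and 8.62 in flox RT arrays. The 3 AKO Cold values lay close together above all others, and the RT groups overlapped. Cpt2 was higher in cold in AKO mice by 0.85 (SE 0.13, adjusted p = 0.0145), a call lost without any AKO Cold array, AKO RT 1 or AKO RT 2, with adjusted p up to 0.076. Between AKO and flox in cold it differed by 0.34 (SE 0.13, adjusted p = 0.677). Cpt1a, the outer membrane transferase that malonyl-CoA inhibits, differed by -0.02 to 0.26 in the pairwise comparisons and passed none. Mlycd, the decarboxylase that removes malonyl-CoA, measured 6.35, 6.31 and 6.11 in AKO Cold arrays against 6.04, 6.24 and 6.01 in flox Cold arrays, and 5.80, 5.53 and 5.74 in AKO RT arrays against 5.68, 5.62 and 5.72 in flox RT arrays. All cold arrays of Mlycd lay above all RT arrays, while the genotypes overlapped at both temperatures. Its cold difference averaged over genotypes was 0.50 (SE 0.08, adjusted p = 0.0102).

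Crat, which transfers acetyl and other short acyl groups between CoA and carnitine, separated the genotypes at both temperatures. Its signals were 10.46, 10.25 and 10.28 in AKO Cold arrays against 9.59, 9.87 and 9.60 in flox Cold arrays. At RT they were 10.00, 9.78 and 10.08 in AKO RT arrays against 9.63, 9.20 and 9.33 in flox RT arrays. AKO arrays lay above the flox arrays of the same temperature without overlap. The difference was 0.64 (SE 0.14, adjusted p = 0.132) in cold and 0.57 (SE 0.14, adjusted p = 0.321) at RT, neither of which passed alone, and 0.61 (SE 0.10, adjusted p = 0.015) averaged over both temperatures. That averaged call was lost without AKO RT 1 or AKO RT 3, with adjusted p up to 0.0523, and when the 2 clusters of Crat were averaged. The second, dimmer cluster differed by 0.55 (SE 0.40) in cold and 0.65 (SE 0.40) at RT.

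Slc22a5, the plasma membrane transporter that takes up carnitine, measured 6.80, 6.67 and 6.74 in AKO RT arrays against 6.19, 6.35 and 6.38 in flox RT arrays. The RT groups did not overlap, with a difference of 0.43 (SE 0.14, adjusted p = 0.618). In cold its signals were 6.72, 6.61 and 6.35 in AKO Cold arrays against 6.85, 6.36 and 6.45 in flox Cold arrays, which overlapped. Cpt1c, a form known from neurons with little transferase activity, was the exception to the direction of the pathway. It measured 5.42, 5.06 and 5.03 in AKO Cold arrays against 5.75, 5.61 and 5.78 in AKO RT arrays. In flox mice it measured 5.19, 5.18 and 4.76 in cold against 5.58, 5.36 and 5.33 at RT. Cold arrays lay below RT arrays in both genotypes, and the averaged difference was -0.46 (SE 0.10, adjusted p = 0.0489). The call for Cpt1c was lost without any array other than AKO Cold 1 (adjusted p up to 0.122), under centring or quantile normalization of the arrays, with the muscle marker mean as a covariate and without the 3 muscle-rich arrays, with the direction kept.

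**Figure D5:**
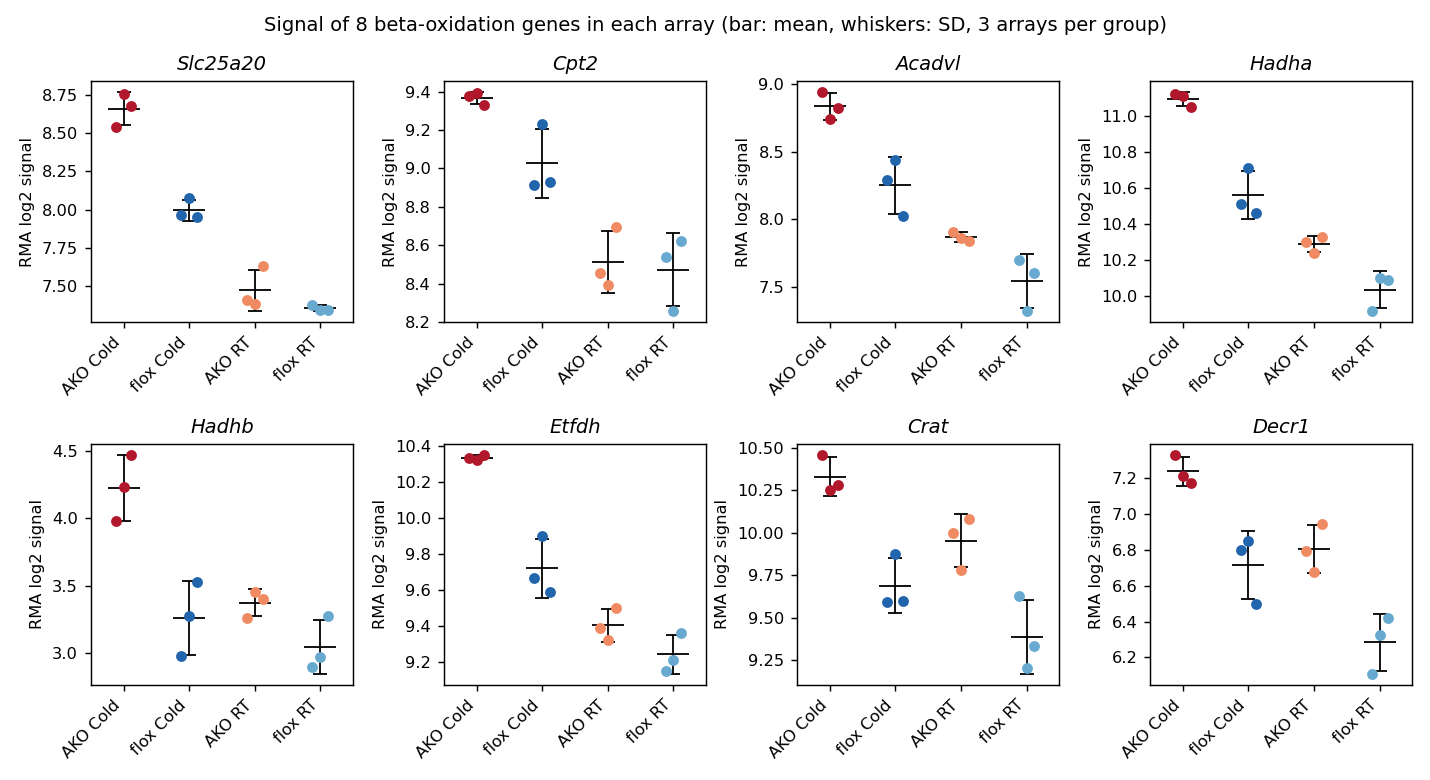
RMA log2 signal of 8 beta-oxidation genes in each array, by group (AKO Cold, flox Cold, AKO RT, flox RT), with the mean as a bar and the SD as whiskers (n = 3 each). Every AKO Cold point lies above every other point in the 8 panels. In Acadvl and Hadha, and narrowly in Slc25a20, all 4 groups are separate.

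Among the 8 acyl-CoA dehydrogenases, which carry out the first oxidation, 5 were higher in cold averaged over genotypes, beside 1.38% of all genes, and 0 were higher in AKO mice in cold, at RT or on average, beside 0.149%, 0.0992% and 0.356%. Acadvl, the membrane-bound enzyme for very long chains, measured 8.94, 8.74 and 8.83 in AKO Cold arrays against 8.29, 8.44 and 8.03 in flox Cold arrays. It measured 7.91, 7.86 and 7.84 in AKO RT arrays against 7.70, 7.32 and 7.61 in flox RT arrays. The 4 groups of Acadvl did not overlap and ran in the order AKO Cold, flox Cold, AKO RT, flox RT. Acadvl was 1.96-fold higher in cold in AKO mice (0.97, SE 0.13, adjusted p = 0.00703), with 0.71 (SE 0.13, adjusted p = 0.1) in flox mice. Its genotype difference was 0.59 (SE 0.13, adjusted p = 0.16) in cold and 0.33 (SE 0.13, adjusted p = 0.768) at RT. The averaged cold difference of 0.84 (SE 0.09, adjusted p = 0.000994) held without each array in turn and under every alternative tried.

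Acadm, the medium-chain dehydrogenase, measured 11.19, 11.27 and 11.25 in AKO Cold arrays against 11.01, 11.10 and 10.74 in flox Cold arrays, and 10.72, 10.69 and 10.76 in AKO RT arrays against 10.52, 10.40 and 10.72 in flox RT arrays. AKO Cold arrays lay above all others, and flox Cold 3 fell within the range of AKO RT. Its averaged cold difference was 0.46 (SE 0.08, adjusted p = 0.0169). Acadl, the long-chain dehydrogenase of mouse fat and muscle, measured 10.62, 10.73 and 11.03 in AKO Cold arrays against 10.53, 10.63 and 10.08 in flox Cold arrays, and 10.13, 9.98 and 10.20 in AKO RT arrays against 9.58, 9.95 and 10.25 in flox RT arrays. AKO Cold lay above AKO RT, while flox Cold and flox RT overlapped. The averaged cold call for Acadl (0.59, SE 0.13, adjusted p = 0.0499) was lost without any array except flox Cold 3 or flox RT 3, with adjusted p up to 0.122.

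Acads, the short-chain dehydrogenase, measured 8.36, 8.33 and 8.03 in AKO Cold arrays against 7.94, 8.04 and 7.87 in flox Cold arrays, and 7.55, 7.31 and 7.73 in AKO RT arrays against 7.72, 7.24 and 7.76 in flox RT arrays. All 6 cold arrays of Acads lay above all 6 RT arrays, with genotypes overlapping. The averaged cold difference was 0.54 (SE 0.11, adjusted p = 0.0348), lost without AKO Cold 1, AKO Cold 2, any flox Cold array, AKO RT 1, AKO RT 2 or flox RT 2 (adjusted p up to 0.0889). Acad11, an enzyme of long acyl chains, measured 8.59, 8.86 and 8.88 in AKO Cold arrays against 8.93, 8.80 and 8.39 in flox Cold arrays, and 8.10, 7.93 and 8.13 in AKO RT arrays against 8.14, 7.94 and 8.01 in flox RT arrays. Here too the cold arrays lay above the RT arrays, and the difference was nearly the same in AKO (0.72) and flox (0.68) mice. Averaged over genotypes it was 0.70 (SE 0.10, adjusted p = 0.00588). The remaining dehydrogenases, Acadsb, Acad9 and Acad10, differed by -0.25 to 0.28 in the pairwise comparisons and passed none. Acadsb, which acts on branched chains from isoleucine, was the pathway's lowest difference between AKO and flox in cold (-0.25, SE 0.13, adjusted p = 0.827).

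Hadha and Hadhb encode the mitochondrial trifunctional protein, the membrane complex that completes the cycle for long chains. Hadha, its hydratase and dehydrogenase subunit, measured 11.12, 11.11 and 11.05 in AKO Cold arrays against 10.51, 10.71 and 10.46 in flox Cold arrays. At RT it measured 10.30, 10.24 and 10.33 in AKO RT arrays against 9.92, 10.10 and 10.09 in flox RT arrays. The 4 groups of Hadha did not overlap and took the same order as those of Acadvl. Hadha was higher in cold in AKO mice by 0.80 (SE 0.10, adjusted p = 0.00398) and differed in flox mice by 0.52 (SE 0.10, adjusted p = 0.107). Between genotypes it differed by 0.54 (SE 0.10, adjusted p = 0.0733) in cold and 0.26 (SE 0.10, adjusted p = 0.767) at RT, and the average of both was 0.40 (SE 0.07, adjusted p = 0.0303). That genotype call was lost without any array other than flox Cold 2 or flox RT 2 (adjusted p up to 0.0952). It was also lost under quantile normalization, with a block for replicate number and with the muscle marker mean as a covariate. The cold call of Hadha in AKO held without each array in turn.

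Hadhb, the thiolase subunit, measured 3.98, 4.23 and 4.47 in AKO Cold arrays against 2.98, 3.27 and 3.53 in flox Cold arrays. Its RT signals were 3.27, 3.46 and 3.40 in AKO RT arrays against 2.90, 2.97 and 3.28 in flox RT arrays. AKO Cold arrays lay above all others, and the remaining 3 groups overlapped. The mean of Hadhb over 12 arrays was 3.48, below the overall median signal of 3.635, whereas that of Hadha, the other subunit, was 10.5. How well the cluster of Hadhb measures its RNA was not tested. All 9 arrays outside AKO Cold were below the overall median, so a level of Hadhb above background is shown at most for AKO Cold. The size of the differences of Hadhb is therefore not settled. The fitted values were 0.97 (SE 0.17, adjusted p = 0.043) between genotypes in cold and 0.85 (SE 0.17, adjusted p = 0.0506) between cold and RT in AKO mice. The genotype call was lost without any array except AKO Cold 1, flox Cold 3 or flox RT 3, with adjusted p up to 0.173, and with the muscle marker mean as a covariate. Trend and robust settings, a fit to only the 6 arrays compared and the methods' t-test after adjustment also lost it. Averaged over both temperatures the fitted genotype difference of Hadhb was 0.65 (SE 0.12, adjusted p = 0.0303), a comparison that includes RT signals all below the overall median. That call was lost without any array except AKO Cold 1, flox Cold 3 or flox RT 3 (adjusted p up to 0.0911) and with the same covariate.

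Of the other enzymes of these steps, Hsd17b10 and Acaa2 were higher in cold, and none passed between genotypes. Hsd17b10, a hydroxyacyl-CoA dehydrogenase that also serves mitochondrial tRNA processing, measured 7.56, 7.30 and 7.27 in AKO Cold arrays against 7.47, 7.31 and 7.23 in flox Cold arrays, and 6.94, 6.70 and 6.90 in AKO RT arrays against 7.13, 6.58 and 7.01 in flox RT arrays. The 6 cold arrays lay above the 6 RT arrays, with an averaged difference of 0.48 (SE 0.11, adjusted p = 0.0433). Acaa2, the matrix thiolase, measured 8.76, 8.57 and 8.79 in AKO Cold arrays against 8.50, 8.79 and 8.41 in flox Cold arrays, and 8.10, 8.01 and 8.33 in AKO RT arrays against 8.26, 7.83 and 8.07 in flox RT arrays. Its cold arrays again lay above all RT arrays, by 0.53 (SE 0.10, adjusted p = 0.0227) on average. The call for Hsd17b10 held only without flox RT 1 or flox RT 3 (adjusted p up to 0.108 otherwise). That for Acaa2 was lost without AKO Cold 1, AKO Cold 3, flox Cold 2, AKO RT 1, AKO RT 2 or flox RT 2 (up to 0.064). Hadh, the dehydrogenase of shorter hydroxyacyl chains, and Echs1, the short-chain hydratase, differed between cold and RT by 0.31 to 0.43 in either genotype, without passing.

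The auxiliary enzymes, which move or remove double bonds of unsaturated fatty acids, included a further gene whose arrays did not overlap between genotypes at either temperature. Decr1, the dienoyl-CoA reductase, measured 7.33, 7.21 and 7.17 in AKO Cold arrays against 6.80, 6.85 and 6.50 in flox Cold arrays. At RT its signals were 6.79, 6.67 and 6.95 in AKO RT arrays against 6.11, 6.32 and 6.42 in flox RT arrays. AKO arrays lay above flox arrays at each temperature, and AKO RT arrays fell within or above the range of flox Cold. The difference was 0.52 (SE 0.13, adjusted p = 0.225) in cold, 0.52 (SE 0.13, adjusted p = 0.324) at RT and 0.52 (SE 0.09, adjusted p = 0.0224) on average. That call was lost without any AKO Cold array, AKO RT 1, AKO RT 3 or flox RT 1 (adjusted p up to 0.074), and the averaged cold call for Decr1 (0.43, SE 0.09, adjusted p = 0.0349) without 9 of the 12 arrays in turn (up to 0.0911).

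Eci1, the main enoyl-CoA isomerase of mitochondria, measured 8.83, 8.57 and 8.57 in AKO Cold arrays against 8.36, 8.61 and 8.22 in flox Cold arrays, and 8.21, 8.03 and 8.02 in AKO RT arrays against 7.96, 7.64 and 7.74 in flox RT arrays. Its cold arrays lay above its RT arrays, and AKO RT lay above flox RT. Eci1 was higher in cold by 0.59 (SE 0.09, adjusted p = 0.00978) averaged over genotypes, and this held without each array in turn. Eci2, an isomerase found in mitochondria and peroxisomes, measured 7.78, 7.47 and 7.48 in AKO Cold arrays against 7.47, 7.74 and 7.51 in flox Cold arrays, and 7.54, 7.26 and 7.52 in AKO RT arrays against 7.27, 6.93 and 7.00 in flox RT arrays. In cold the genotypes of Eci2 were nearly equal (0.0027, SE 0.14, adjusted p = 0.999), whereas at RT they differed by 0.37 (SE 0.14, adjusted p = 0.714), with AKO RT 2 just inside the flox RT range. Its cold difference was 0.14 (SE 0.14, adjusted p = 0.816) in AKO and 0.51 (SE 0.14, adjusted p = 0.267) in flox mice, and its interaction of -0.37 (95% interval -0.79 to 0.06) did not pass.

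Electron transfer was represented by both subunits of the flavoprotein and by its dehydrogenase. Etfdh, the inner membrane enzyme that passes electrons to ubiquinone, measured 10.33, 10.32 and 10.35 in AKO Cold arrays against 9.66, 9.90 and 9.59 in flox Cold arrays. At RT it measured 9.39, 9.32 and 9.50 in AKO RT arrays against 9.15, 9.21 and 9.36 in flox RT arrays. The AKO Cold values lay close together above all others, flox Cold lay above both RT groups, and the RT groups overlapped. Etfdh was 1.53-fold higher in AKO Cold than in flox Cold (0.62, SE 0.11, adjusted p = 0.0499) and 1.91-fold higher than in AKO RT (0.93, SE 0.11, adjusted p = 0.00257). In flox mice it differed between cold and RT by 0.48 (SE 0.11, adjusted p = 0.195). The genotype call was lost without any array other than flox Cold 2 (adjusted p up to 0.188), with differences between 0.55 and 0.71, and the cold call in AKO held without each array. The genotype call of Etfdh was also lost under centring, in a fit to only the 6 arrays compared and with a block for replicate number. The methods' t-test after adjustment and the muscle marker mean as a covariate lost it too.

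Etfa, the alpha subunit of electron transfer flavoprotein, measured 10.07, 10.08 and 10.00 in AKO Cold arrays against 9.82, 10.04 and 9.61 in flox Cold arrays, and 9.63, 9.49 and 9.63 in AKO RT arrays against 9.50, 9.38 and 9.53 in flox RT arrays. AKO Cold lay above AKO RT and flox Cold above flox RT, while flox Cold 2 reached the range of AKO Cold. The averaged cold difference of Etfa was 0.41 (SE 0.08, adjusted p = 0.0285), a call lost without any array except flox Cold 3 or flox RT 3 (adjusted p up to 0.0733). Etfb, the beta subunit, differed by 0.24 (SE 0.09, adjusted p = 0.283) and did not pass.

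Companion genes around the pathway showed larger differences in single transporters and thioesterases than in the pathway itself. Of 11 measured genes of fatty acid uptake and mitochondrial thioesterases, 2 were higher in AKO than in flox in cold, beside 0.149% of all genes. Slc27a2, a very long-chain acyl-CoA synthetase and fatty acid transporter, measured 4.94, 5.07 and 5.54 in AKO Cold arrays against 2.50, 2.13 and 2.02 in flox Cold arrays, and 2.50, 2.61 and 2.39 in AKO RT arrays against 2.35, 2.99 and 2.34 in flox RT arrays. AKO Cold lay far above the other arrays, all of which were below the overall median signal and so not shown to exceed background, with a fitted genotype difference of 2.97 (SE 0.20, adjusted p = 3.11e-05). Acot11, a thioesterase first known as induced by cold in brown fat, measured 6.37, 6.17 and 6.40 in AKO Cold arrays against 4.06, 4.26 and 4.02 in flox Cold arrays, and 4.06, 4.38 and 3.91 in AKO RT arrays against 3.81, 3.77 and 4.15 in flox RT arrays. AKO Cold again stood apart, by 2.20 (SE 0.15, adjusted p = 2.66e-05) from flox Cold. For Slc27a2 and Acot11 the interaction also passed (3.03, SE 0.29, adjusted p = 0.00188, and 1.99, SE 0.21, adjusted p = 0.0035), unlike for any beta-oxidation gene. Averaged over temperatures, Acot13, a thioesterase associated with mitochondria, was higher in AKO mice by 0.42 (SE 0.07, adjusted p = 0.0128). In cold averaged over genotypes, Slc27a1, a fatty acid transport protein, was higher by 0.94 (SE 0.12, adjusted p = 0.003) and Acot13 by 0.30 (SE 0.07, adjusted p = 0.0471). Cpt1b and Acsl1 were not analysed here.

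Genes of carnitine supply and malonyl-CoA passed in the averaged cold comparison only, 3 higher and 1 lower of 11 measured (1.38% and 0.455% of all genes), a list that shares Slc22a5 and Mlycd with the pathway. Acaca, the carboxylase that makes malonyl-CoA for fatty acid synthesis, measured 11.38, 11.02 and 11.07 in AKO Cold arrays against 10.92, 10.76 and 10.41 in flox Cold arrays, and 10.39, 10.44 and 10.39 in AKO RT arrays against 9.71, 9.50 and 9.97 in flox RT arrays. Its cold arrays overlapped the RT arrays at one value only, and the averaged difference was 0.86 (SE 0.11, adjusted p = 0.00303). Acacb, the carboxylase at the outer mitochondrial membrane, was higher by 1.05 (SE 0.21, adjusted p = 0.0294), and Slc16a9, linked to carnitine export in humans, was lower, with a difference of -0.50 (SE 0.11, adjusted p = 0.0494). Among 9 measured ketone and propionyl-CoA enzymes, Acat1, the acetoacetyl-CoA thiolase, was higher in cold by 0.34 (SE 0.08, adjusted p = 0.0441). Among 10 measured genes that support flavin supply and electron transfer flavoprotein, Etfrf1, a regulator of that flavoprotein, was higher by 0.50 (SE 0.09, adjusted p = 0.0157) and Ecsit, a complex I assembly factor, by 0.55 (SE 0.10, adjusted p = 0.0206). No gene of these 3 lists passed between genotypes or within one genotype.

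Of 15 measured transcriptional regulators of fatty acid oxidation, 1 was higher in AKO than in flox in cold, beside 0.149% of all genes. Ppara, the nuclear receptor that activates genes of this pathway, measured 6.21, 5.66 and 6.16 in AKO Cold arrays against 4.77, 4.73 and 4.52 in flox Cold arrays, and 4.69, 4.59 and 5.04 in AKO RT arrays against 4.67, 4.06 and 4.14 in flox RT arrays. AKO Cold lay above every other array, by 1.34 (SE 0.19, adjusted p = 0.0155) from flox Cold and 1.24 (SE 0.19, adjusted p = 0.0166) from AKO RT. Ppargc1b, a coactivator of mitochondrial genes, was higher in cold by 0.48 (SE 0.09, adjusted p = 0.025) averaged over genotypes. Its relative Ppargc1a measured 7.94, 7.44 and 7.68 in AKO Cold arrays against 7.16, 7.86 and 7.50 in flox Cold arrays, and 7.02, 6.14 and 6.82 in AKO RT arrays against 7.19, 7.00 and 7.65 in flox RT arrays. The genotypes of Ppargc1a overlapped in cold (0.18, SE 0.25, adjusted p = 0.99), and at RT 1 AKO array reached into the flox range (-0.62, SE 0.25, adjusted p = 0.78). Esrra, an estrogen-related receptor, measured 5.39, 5.68 and 5.43 in AKO Cold arrays against 5.58, 5.70 and 5.77 in flox Cold arrays, and 5.38, 5.71 and 5.42 in AKO RT arrays against 5.08, 5.25 and 5.40 in flox RT arrays. It overlapped in both comparisons (-0.19, SE 0.13, adjusted p = 0.915, and 0.26, SE 0.13, adjusted p = 0.844). Slc27a2 and Ppargc1a are also on the list of brown and beige markers.

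Muscle fibres also use beta-oxidation, so the muscle signal of the arrays is given beside these results. Markers averaged -1.78, 1.17 and 3.0 in AKO Cold 1, 2 and 3 and 0.79, -0.40 and -1.40 in the flox Cold arrays. AKO Cold 1, with the lowest muscle mean of all arrays, had the highest beta-oxidation mean of all arrays (0.35). Single genes went either way in AKO Cold 1, 2 and 3. Hadhb rose with the muscle mean (3.98, 4.23 and 4.47), whereas Acads fell (8.36, 8.33 and 8.03). With the muscle mean as a covariate the genotype comparison in cold kept 1 of 3 calls, Slc25a20, and the cold comparison in AKO kept 5 of 5. The part of muscle RNA in the differences was not tested further. Macrophage markers averaged -0.37 to -0.01 in AKO Cold against -0.295 to -0.16 in flox Cold, and 0.10 to 0.30 in AKO RT against -0.28 to 0.54 in flox RT. Lymphocyte markers averaged -0.39 to 0.22 in AKO Cold against -0.33 to 0.48 in flox Cold, and -0.33 to 0.22 in AKO RT against -0.13 to 0.28 in flox RT. Mammary epithelium markers averaged -0.19 to 0.32 in AKO Cold against -0.24 to 0.47 in flox Cold, and -0.22 to -0.20 in AKO RT against -0.22 to 0.62 in flox RT. The ranges of these 3 lists overlapped between genotypes at each temperature and between cold and RT in flox mice. In AKO mice, where 5 genes of the pathway were higher in cold, macrophage markers were lower in cold than at RT without overlap. Mammary epithelium markers averaged -0.187, 0.319 and -0.170 in AKO Cold against -0.209, -0.200 and -0.220 in AKO RT. These arrays did not overlap either, but only AKO Cold 2 stood clearly higher. Of the 15 measured mammary markers, 4 to 7 exceeded the overall median signal in these arrays. The part of the 3 lists in the results was not tested.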

How the data were processed

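RNA of mouse iWAT from 4 groups of 3 arrays was measured with single-colour Affymetrix arrays, using 400 ng of RNA per array. Per the labels, the authors made the deposited log2 values in R 3.1.1 by RMA, a method that subtracts background, equalizes the arrays' distributions and summarises probes per transcript cluster, so that small changes can be compressed and no detection call remains. Whether the 12 arrays were normalized together is not given in the sources used here. Of 41345 clusters, 23521 had 1 gene symbol, 1820 several and 16004 none, and 0 columns of values were left out. The cluster with the highest mean stood for each of 22180 genes.

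The groups were compared with limma 3.58.1 (R 4.3.3), fitting 1 mean per group to all 12 arrays and using eBayes at its default settings, two-sided tests and Benjamini-Hochberg adjustment over all genes within each of 7 comparisons, at a threshold of 0.05. The number of arrays, 3 per group, limits the precision, and the median SE of a log2 difference of the pathway's genes was 0.13 in pairwise comparisons. No covariate was fitted, since neither sex nor batch is in the labels. The fit was tested on simulated data with known changes.

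Genes given array by array were those called in any comparison, plus the 6, 4 and 4 uncalled genes of the pathway with the smallest p between genotypes in cold, between genotypes at RT and between cold and RT in AKO. Outside the pathway, called genes of 5 companion lists were named, with Ppara, Ppargc1a, Esrra, Smarcd1 and Ucp1. Second clusters are given for Crat and Acsl6. The members, the lists and the rule were chosen with earlier results of these data known. Promoters are RefSeq sequences on GRCm38.p6, searched on both strands.

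Alternatives were centring or quantile normalization of the arrays, leaving out dim genes (fewer than 3 arrays over the overall median, 3.635), averaging clusters, trend and robust eBayes, array weights, a fit to only the 6 arrays compared, a block for replicate number, the methods' t-test on single genes, leaving out the 3 arrays richest in muscle markers, the muscle marker mean as a covariate, and leaving out each array in turn.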

Additional observations from a re-analysis of the deposited data

Results flagged for a closer look

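A second transcript cluster of Acsl6, which no comparison of the report used, had signals of 1.85, 1.61 and 1.81 in AKO Cold against 1.58, 1.55 and 1.28 in flox Cold, a log2 difference of 0.29 (SE 0.15). It is listed because it is a signal outside the main measurement that lay higher in AKO Cold than in the flox Cold controls. At RT it measured 1.26, 1.63 and 1.42 in AKO against 1.49, 1.92 and 1.58 in flox, a difference of -0.23. All 12 values lay below the overall median signal of 3.635, as did those of the first Acsl6 cluster.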

How the results depend on the processing

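Counts of beta-oxidation genes that passed the test depended on the processing. Alternatives were run for these counts and for the called genes of each comparison and the nearest uncalled genes between genotypes in cold, between genotypes at RT and between cold and RT in AKO mice, of which none changed sign, and not for the other differences given or for companion genes. Between AKO and flox in cold, the count of 3 became 0 with the 6 arrays of the comparison alone, with the methods' t-test after adjustment or without the 3 muscle-rich arrays, and 1 with the muscle mean as a covariate or the replicate block. Between cold and RT in AKO mice, the count of 5 became 8 with centred arrays, 9 without dim genes, 12 with trend and robust settings, 10 with array weights, and 0 with the methods' t-test or without the muscle-rich arrays. Hadhb was among the 9 genes called without dim genes, and it passed that filter only through its 3 AKO Cold arrays. In flox mice, the count of 0 became 1 without dim genes and 3 with trend and robust settings. Over all genes, the calls in flox mice went from 2 to 16 and 50 in these settings. Averaged over temperatures, the 5 genotype calls became 2 with the replicate block or the muscle covariate and 0 without the muscle-rich arrays, and averaged over genotypes, the 17 cold calls became 3 without those arrays. At RT and in the interaction the count stayed 0 under each alternative run. Leaving out 1 array gave 0 to 2 calls between genotypes in cold, 4 to 7 for cold in AKO, 0 to 4 for the averaged genotype comparison, 9 to 17 for the averaged cold comparison, and 0 in the other 3. Without the muscle-rich arrays AKO Cold has 1 array, which is assumed to vary like the other groups. The 6 arrays alone and the methods' t-test were not run for the interaction and the averages. Over all genes, calls between genotypes in cold numbered 47, with 26 from the 6 arrays alone, 1 from the methods' t-test, 23 without the muscle-rich arrays and 68 of the brighter 12955. Those for cold in AKO numbered 103, with 202 without dim genes, 212 with trend and robust settings, 208 with array weights, 68 from the 6 arrays alone, 0 from the methods' t-test and 12 without the muscle-rich arrays. The replicate numbers gave no clear sign of pairing. Of the same-numbered pairs, 4 of 18 correlated above 0.1 (range -0.24 to 0.28), while differently numbered pairs ranged from -0.44 to 0.40. Of the 12 arrays, 5 correlated best with an array of their own number. With the replicate block the counts were 1 between genotypes in cold, 0 at RT, 6 for cold in AKO, 0 for cold in flox, 0 for the interaction, 2 for the averaged genotype and 13 for the averaged cold comparison. Centring moved the median difference of all genes by at most 0.0552. Signal limits Hadhb and Acsl6, whose means lay below the overall median, and RMA values hold no detection call for any gene. The causes of these shifts were not tested.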
